A study of Homo sapiens with 6 samples.

Results

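The CXC and CC chemokines examined here were 10 of the 20461 genes in the deposited expression table. CXCL1, CXCL2, CXCL3, CXCL5, CXCL6, CXCL8 (also called IL8), CXCL10, CXCL16, CCL2 and CCL20 were chosen by name, and their fragment counts and FPKM were read in every RNA-seq library. FPKM divides a gene's fragments by transcript length in kilobases and by library depth, so that it allows levels to be compared between genes. PANC1, a human pancreatic ductal carcinoma line, was grown for 24 h and then kept for 48 h with either vehicle (0.1% DMSO) or gemcitabine, a nucleoside analog that stops DNA synthesis, at 50 nM. Both conditions used the same medium with charcoal-stripped, dialyzed serum. Each condition had 2 RNA-seq libraries, described as biological replicates, and 1 DNaseI-seq library, which maps open chromatin. A single carcinoma line in culture holds no neutrophils, monocytes or lymphocytes, the cells that chemokines attract, so the measurements concern the chemokine messages of the carcinoma cells alone.

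Chemokines are small secreted proteins that steer the movement of leukocytes through receptors coupled to G proteins. CXC chemokines carry a residue between the leading pair of cysteines, and CC chemokines do not. CXCL1, CXCL2, CXCL3, CXCL5, CXCL6 and CXCL8 have a Glu-Leu-Arg motif (ELR) before the CXC motif and attract neutrophils. They act through the receptor CXCR2, and some of them, such as CXCL8, also through CXCR1. CXCL10 lacks the ELR motif, is induced by interferons and draws activated T cells through CXCR3. CXCL16 is made as a membrane protein that can be shed, CCL2 attracts monocytes through CCR2, and CCL20 is the ligand of CCR6. Many of these genes are switched on by NF-kB, a transcription factor of inflammation that binds kappaB sites in their promoters, and in pancreatic carcinoma they are known as part of the inflammatory secretions of the tumor.

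The genes lay in a few clusters. In hg19, 7 of the 10 were on chromosome 4, and the 6 ELR chemokines started within 359 kb of each other there, in the order CXCL8 (chr4:74606286-74609433, + strand), CXCL6 (chr4:74702395-74704477, +), CXCL1 (chr4:74735110-74737025, +), CXCL5 (chr4:74861359-74864394, -), CXCL3 (chr4:74902306-74904406, -) and CXCL2 (chr4:74962757-74964912, -). CXCL10 (chr4:76942271-76944650, -) started 2338 kb beyond CXCL8 and lay inside ART3, a gene of the opposite strand. CCL2 (chr17:32582304-32584222, +) and CXCL16 (chr17:4636828-4643223, -) were on chromosome 17, and CCL20 (chr2:228678558-228682272, +) was on chromosome 2. Each had 4 exons in its canonical transcript, other than CCL2 with 3 and CXCL16 with 6. CXCL16 overlapped its neighbours MED11 and ZMYND15, both on the opposite strand, by 76 and 96 bases at its ends.

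Of the letter patterns searched, only 1 stood in the promoters of all ELR chemokines. The RefSeq table of promoter windows (GRCh38.p14, 250 bases before to 50 bases after the start) was matched for 8 of the 10 genes, all but CXCL16 and CCL2. The 9 letters GGAATTTCC, the core of a kappaB site, stood on the gene's own strand in all 6 ELR promoters, between 91 and 69 bases before the start. The stretch of 150 bases before the start is shown here because the position and the surroundings of this core differ between subgroups of the family, and capitals mark the core.
CXCL1 (chr4:73869243-73869392, + strand): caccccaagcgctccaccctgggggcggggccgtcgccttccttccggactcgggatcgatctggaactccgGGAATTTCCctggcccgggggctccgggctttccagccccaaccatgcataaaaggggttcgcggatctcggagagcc
CXCL2 (chr4:74099196-74099345, - strand): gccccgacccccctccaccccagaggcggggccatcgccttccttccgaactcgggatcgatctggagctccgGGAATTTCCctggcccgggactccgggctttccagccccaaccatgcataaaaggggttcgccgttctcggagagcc
CXCL3 (chr4:74038690-74038839, - strand): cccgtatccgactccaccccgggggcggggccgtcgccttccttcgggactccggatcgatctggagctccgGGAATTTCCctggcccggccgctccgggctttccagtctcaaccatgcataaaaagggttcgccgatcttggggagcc
CXCL5 (chr4:73998678-73998827, - strand): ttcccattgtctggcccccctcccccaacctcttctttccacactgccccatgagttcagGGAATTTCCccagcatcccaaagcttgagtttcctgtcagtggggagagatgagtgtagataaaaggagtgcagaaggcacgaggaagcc
CXCL6 (chr4:73836528-73836677, + strand): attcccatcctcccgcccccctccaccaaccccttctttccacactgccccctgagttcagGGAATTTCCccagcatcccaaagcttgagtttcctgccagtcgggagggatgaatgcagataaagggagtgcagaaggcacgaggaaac
CXCL8 (chr4:73740419-73740568, + strand): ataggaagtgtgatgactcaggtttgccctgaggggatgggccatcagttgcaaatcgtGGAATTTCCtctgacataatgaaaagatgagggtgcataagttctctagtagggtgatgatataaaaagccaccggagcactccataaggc

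CXCL1 and CXCL3 carried the core 78 to 70 bases before the start and CXCL2 77 to 69 bases before it. In CXCL6 and CXCL5 it stood 89 to 81 and 90 to 82 bases before the start, and in CXCL8 91 to 83 bases before it. Over the 250 bases before the start, CXCL1 and CXCL3 were identical at 81.4% of aligned positions and CXCL5 and CXCL6 at 85.3%. CXCL2 was identical to CXCL1 at 70.1% and to CXCL3 at 73.4%, while CXCL8 stayed between 43.9% and 47.9% with each of the other 5. The core in CXCL8 was therefore flanked by unlike sequence, and only in CXCL8 among the 6 did TGANTCA, a binding site of AP-1, occur in the window (137 to 131 bases before the start). CXCL8 was also the only one of the 6 with the exact letters TATAAA of a TATA box, at 31 to 26 bases before the start. Near variants were not searched, and the printed stretches hold CATAAA in CXCL1, CXCL2 and CXCL3 and GATAAA in CXCL5 and CXCL6. Absence of a TATA element from these is therefore not shown. CXCL10 and CCL20 are shown for the same comparison, with 180 and 150 bases. Capitals mark the kappaB core on the opposite strand in CXCL10, and in CCL20, which lacked the core, a match to the wider kappaB consensus.
CXCL10 (chr4:76023498-76023677, - strand): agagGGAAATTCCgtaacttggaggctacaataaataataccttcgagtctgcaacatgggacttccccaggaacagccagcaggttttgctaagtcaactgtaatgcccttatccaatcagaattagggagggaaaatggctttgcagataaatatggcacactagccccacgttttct
CCL20 (chr2:227813692-227813841, + strand): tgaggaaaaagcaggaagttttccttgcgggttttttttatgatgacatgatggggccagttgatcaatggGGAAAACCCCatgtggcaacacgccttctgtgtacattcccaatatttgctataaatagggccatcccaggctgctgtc

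The match in CXCL10 lay 176 to 168 bases before the start, and an interferon response element (TTTC, any 2 bases, TTTC) was matched 221 to 212 bases before it on the opposite strand. CXCL10 also held a second match to the kappaB consensus, which overlaps the core where both are found, at 122 to 113 bases before the start. The marked match in CCL20 lay 79 to 70 bases before the start and TATAAA 29 to 24 bases before it. Both strands were searched in 35116 windows of 300 bases, of which 0.461% held the core, 11.3% the wider kappaB consensus, 7.71% TGANTCA, 3.57% the interferon element and 11.5% TATAAA. Of the 8 chemokine windows, 7 held the core (CCL20 did not) and 7 the wider consensus (CXCL8 did not). The core was chosen because many chemokine promoters are known to carry it, so its count among them is no independent result. The chemokine promoters are related copies, so these matches are not independent of each other, and a match describes letters and no measured binding.

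**Figure D1:**
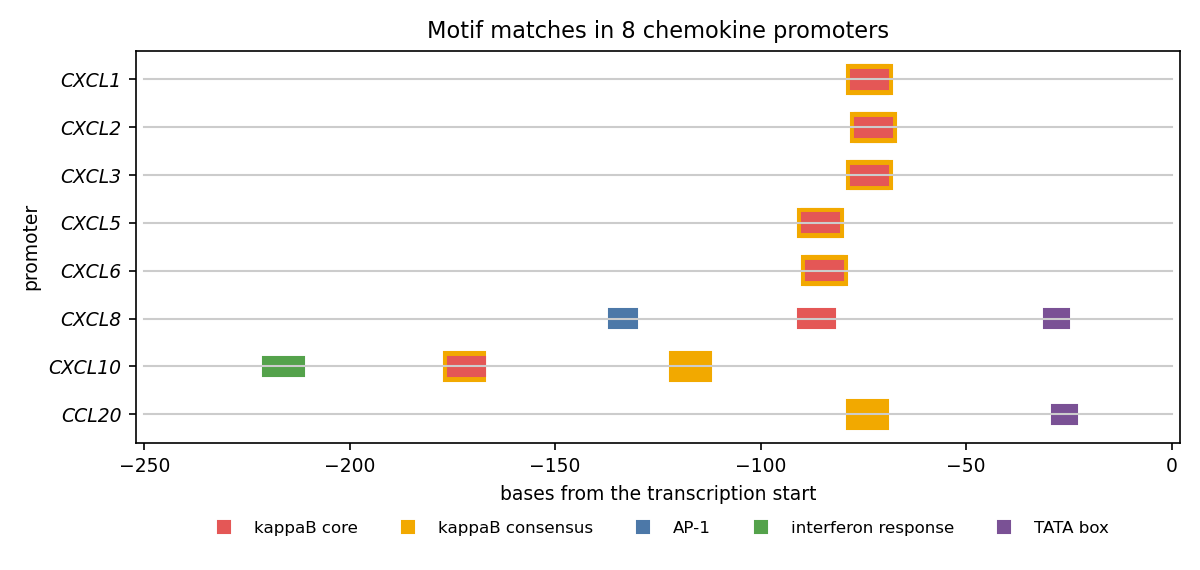
Motif matches in the 250 bases before the transcription start of 8 chemokine genes, with the distance from the start in bases on the horizontal axis and 1 promoter per row. Colored boxes mark the matches on either strand, and the kappaB core lies between 91 and 69 bases before the start in the 6 ELR chemokines and at 176 to 168 bases in CXCL10.

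The RNA-seq libraries held 13194533 to 15766237 fragments assigned to genes, which put 3 fragments at 0.190 to 0.227 CPM (counts scaled by library size). As markers of the line, the epithelial keratin KRT7 and the mesenchymal VIM averaged 1549 and 434 FPKM over the 4 libraries, and EPCAM and CDH1 were low. Of the leukocyte markers CD3E had no fragment, CD14 had 1 and PTPRC 2 to 9 per library, while CD68, a lysosomal protein not limited to leukocytes, had 133 to 269. COL1A1, a collagen also listed for fibroblasts, averaged 955 FPKM in these cells, and COL1A2 had 0 to 3 fragments per library. CD68, KRT19 and LUM were called higher after gemcitabine, and the part of such changes in the chemokine results was not tested.

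CCL2 was by far the most abundant of the chemokines. It reached 132 and 111 FPKM in the vehicle libraries and 127 and 140 FPKM in the gemcitabine libraries. This was a level above 94.2% of all genes of the table in vehicle, and it made up 91.8% and 92.1% of the summed FPKM of the 10 genes there. CXCL16 followed at 8.05 and 5.55 FPKM, and CXCL2 at 1.51 and 1.91 FPKM. CXCL8 (1.01 and 0.579 FPKM), CXCL1 (0.673 and 0.599 FPKM) and CXCL3 (0.359 and 0.878 FPKM) overlapped in vehicle, so no order among them could be read. CCL20 was at 0.262 and 0 FPKM, and CXCL5, CXCL6 and CXCL10 stayed under 0.01 FPKM. After gemcitabine CXCL8, at 6.45 and 6.83 FPKM, overlapped with CXCL16, at 4.86 and 8.33 FPKM, and CXCL2, CXCL1, CXCL3 and CCL20 followed in that order with no overlap between neighbours.

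**Figure D2:**
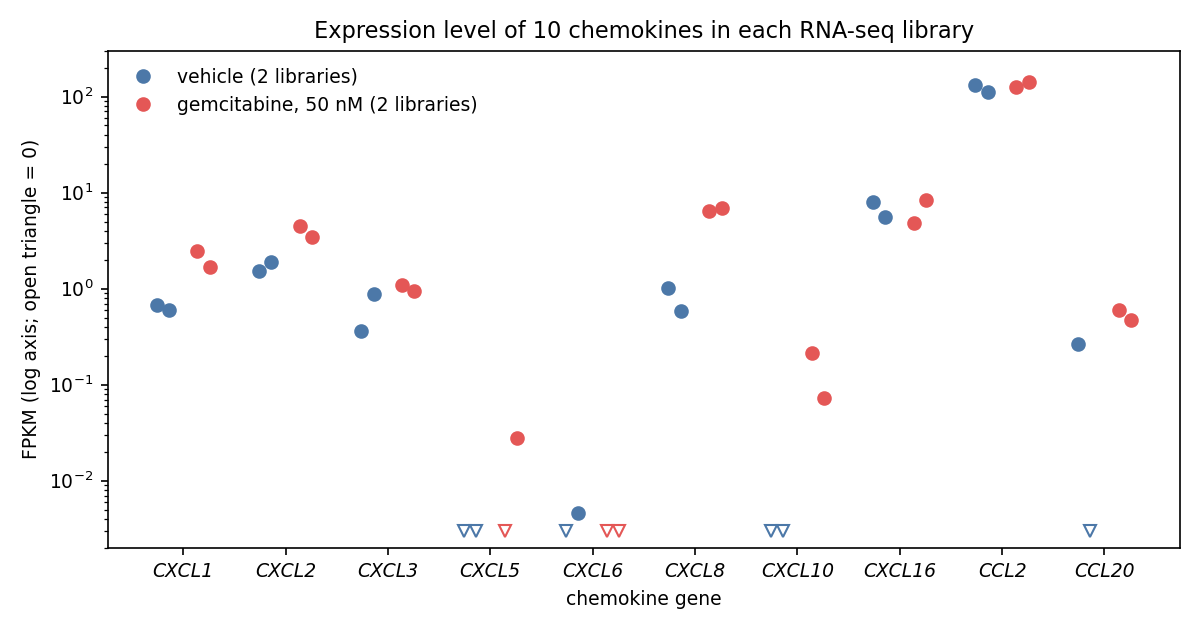
FPKM of the 10 chemokines on a log axis, with 1 point per RNA-seq library (2 vehicle, 2 gemcitabine) and open triangles at the foot for a level of 0. CCL2 lies above 100 FPKM in every library, while the CXCL8 points of gemcitabine (6.45 and 6.83) lie well above those of vehicle (1.01 and 0.579).

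Gemcitabine-treated cells held more message of 3 chemokines, all of them ELR chemokines that attract neutrophils. Of the 10 genes, 7 had at least 10 fragments over the 4 libraries and were tested, and CXCL8, CXCL1 and CXCL2 were called higher and 0 lower. With DESeq2 the calls were the same, though CXCL1 passed only narrowly (adjusted p = 0.0429 from DESeq2). In edgeR 3 chemokines were higher and 0 lower at an unadjusted p under 0.05. A call required an adjusted p under 0.05 together with a fold above 1.5, a mean of 0.1 FPKM or more in either condition, and means at least 1 FPKM apart. By the same rule 5.69% of the 14854 genes tested were called higher and 4.42% lower, and at an unadjusted p under 0.05 in edgeR 23.1% were higher and 24.1% lower. In 5 of the 7 tested chemokines both gemcitabine libraries lay above both vehicle libraries in CPM, where 46.2% of all tested genes did so. P-values came from the quasi-likelihood test of edgeR and were adjusted by Benjamini-Hochberg over all tested genes. With limma on log2(FPKM + 1) of all 17783 genes, 0 genes were called, chemokines included, although 4689 had an unadjusted p under 0.05. With 2 libraries per condition, edgeR estimated the spread of a gene partly from that of all tested genes, not from its own cultures alone. Bulk RNA cannot tell a larger share of producing cells from more message per cell.

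CXCL8, a main attractant of neutrophils, had 24 and 13 fragments in vehicle and 103 and 120 after gemcitabine. Every gemcitabine library was thus far above both vehicle libraries. The log2 fold change was 2.70 (SE 0.28, edgeR's quasi-likelihood test, adjusted p = 4.46e-06), and the 95% interval ran from 2.10 to 3.29. It was the 91st largest rise of all tested genes. The ratio of CCL2 to CXCL8 in FPKM was 131 and 191 in vehicle and 19.7 and 20.5 after gemcitabine, so the distance between the most abundant chemokine and CXCL8 shrank in both treated libraries. CXCL8 made up 28.5% and 14.6% of the summed FPKM of the 6 ELR chemokines in vehicle, and 44.4% and 52.8% after gemcitabine.

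CXCL1, a close relative of CXCL2 and CXCL3 and like them a ligand of CXCR2, had 5 and 11 fragments in vehicle and 27 and 25 after gemcitabine. The conditions did not overlap in CPM or in FPKM (2.45 and 1.70 after gemcitabine). The log2 fold change was 1.80 (SE 0.44, edgeR's quasi-likelihood test, adjusted p = 0.00472), with a 95% interval of 0.86 to 2.74. Without the vehicle library with 5 fragments the log2 fold change was 1.38 and CXCL1 was no longer called. That fit held 1 vehicle library, and the reason for the loss was not tested. Without the other vehicle library the log2 fold change was 2.44, and without either gemcitabine library 1.76 or 1.84. The FPKM that 1 CPM stood for differed 2.38 times between libraries for CXCL1, against 1.04 times for CCL2, so that counts and FPKM did not give the same ratios between its libraries.

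CXCL2 had 23 and 22 fragments in vehicle and 61 and 49 after gemcitabine. Its vehicle libraries were nearly equal and both gemcitabine libraries were above them. In FPKM it went from 1.71 ± 0.285 (SD, n = 2) to 3.99 ± 0.777 (SD, n = 2). The log2 fold change was 1.40 (SE 0.28, edgeR's quasi-likelihood test, adjusted p = 0.00129) and a 95% interval of 0.79 to 2.00.

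CXCL3, the remaining member of this trio, had 5 and 9 fragments in vehicle and 9 and 10 after gemcitabine. The upper vehicle library and the lower gemcitabine library held the same number of fragments, although both gemcitabine libraries were slightly higher in CPM. The log2 fold change was 0.55 (SE 0.54, edgeR's quasi-likelihood test, adjusted p = 0.454). Its 95% interval of -0.61 to 1.70 includes 0 and also the value of CXCL2, so at this depth a rise of the size seen for CXCL2 was neither shown nor absent.

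Reads of CXCL1, CXCL2 and CXCL3 can be split between them by the counting, because their transcripts are alike. Of all 50-base stretches of the canonical transcripts, 5.33% of those of CXCL1, 10.1% of CXCL2 and 5.26% of CXCL3 recurred in another of the 10 genes, and in the other 7 genes 0 did. Summed over the trio, the libraries held 33 and 42 fragments in vehicle and 97 and 84 after gemcitabine. The sum does not depend on the split, and its conditions did not overlap. Its log2 fold change was 1.38 (SE 0.22, edgeR's quasi-likelihood test, adjusted p = 0.000235).

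CXCL5 and CXCL6, neutrophil attractants like the other ELR chemokines, were nearly silent. CXCL5 had 0 fragments in 3 libraries and 1 in a gemcitabine library, and CXCL6 had 1 fragment in a vehicle library and 0 elsewhere. All libraries were under the level of 3 fragments, so no fold was computed. Both promoters hold the same kappaB core as the ELR chemokines that rose. The 6 ELR chemokines together reached 3.55 and 3.97 FPKM in vehicle and 14.5 and 12.9 FPKM after gemcitabine, of which CXCL5 and CXCL6 contributed less than 0.03 FPKM in any library.

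CXCL10, the T-cell attractant, had 0 fragments in both vehicle libraries and 3 and 1 after gemcitabine. No library exceeded 3 fragments, so no fold was computed and a difference was not detectable at this depth. A count of 0 allows up to 0.198 and 0.190 CPM in the vehicle libraries, and the gemcitabine libraries were at 0.227 and 0.0753 CPM. The counting is not stated to use strand, so a fragment of ART3 on the opposite strand could not be told from one of CXCL10.

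CCL2 and CXCL16, the most abundant of the 10 chemokines in the vehicle libraries, showed no difference that passed the test. CCL2 had 1154 and 1047 fragments in vehicle and 997 and 1081 after gemcitabine, and the conditions overlapped. Its log2 fold change was 0.03 (SE 0.083, edgeR's quasi-likelihood test, adjusted p = 0.804), and the 95% interval of -0.15 to 0.21 lay within a change of 1.5 times in either direction. CXCL16 had 153 and 148 fragments in vehicle and 113 and 142 after gemcitabine. The treated libraries lay on either side of the vehicle libraries in CPM. Its log2 fold change was -0.12 (SE 0.16, edgeR's quasi-likelihood test, adjusted p = 0.567), with an interval of -0.46 to 0.21.

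CCL20, the CCR6 ligand, had 2 and 0 fragments in vehicle and 5 and 4 after gemcitabine. Both treated libraries were above both vehicle libraries, at counts close to the limit of detection. The CPM ratio of the summed counts was 5.26, with an exact 95% interval of 1.09 to 50.0 that covers counting error only. The log2 fold change, 2.14 (SE 1.03), did not pass the test (edgeR's quasi-likelihood test, adjusted p = 0.115).

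**Figure D3:**
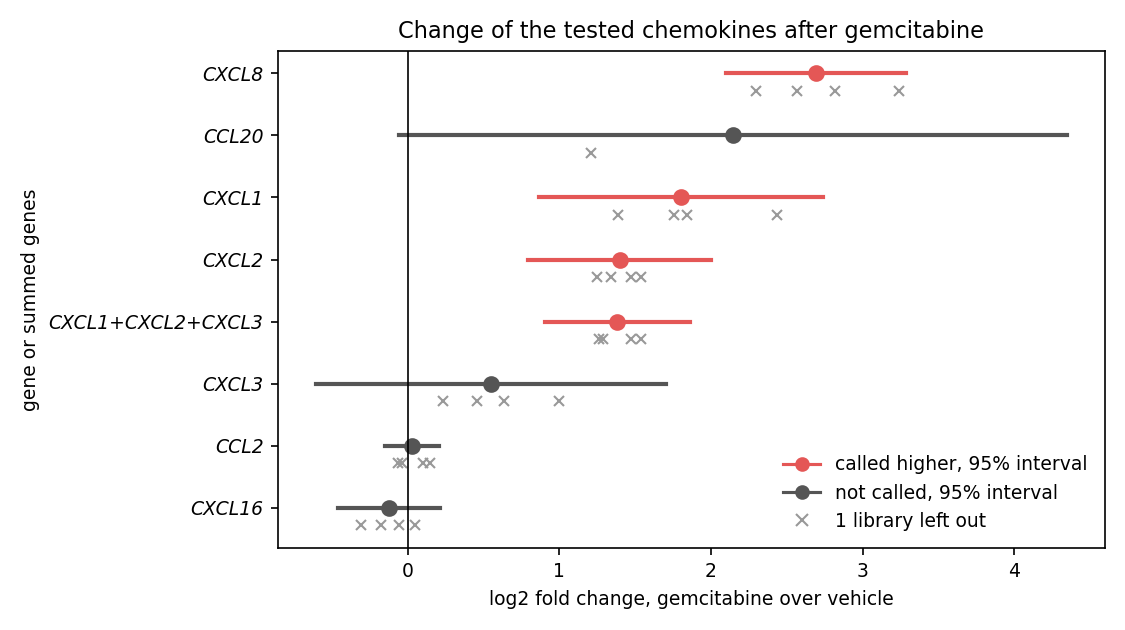
Log2 fold change, gemcitabine over vehicle, of the 7 tested chemokines and of the summed CXCL1, CXCL2 and CXCL3, with 95% intervals (lines) and the values when 1 library is left out (crosses, where the gene could still be tested). CXCL8 (2.70), CXCL1 (1.80) and CXCL2 (1.40) have intervals above 0, while the narrow intervals of CCL2 and CXCL16 include 0.

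Chromatin at the chemokine starts was read from the DNaseI peak lists, 9606 peaks for vehicle and 10695 for gemcitabine, from 1 library per condition and therefore without a test. A peak lay within 5 kb of the start for 2 of the 10 genes in vehicle (CXCL2 and CCL20) and for 1 in gemcitabine (CCL2). Over 19343 genes with a known start, 22.1% had such a peak in the vehicle list and 25.6% in the gemcitabine list. None of the 10 genes had one in both lists, where 16.6% of all genes did, 5.57% had one in the vehicle list alone and 9.0% in the gemcitabine list alone.

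The start of CXCL2, which rose after gemcitabine, lay inside a peak of the vehicle list (chr4:74964830-74965773, score 68.61, where the score is 10 times the negative log10 of the MACS p-value). This peak reached 861 bases before the start and 82 bases after it. The sequence printed above for CXCL2 had 1 exact match in hg19, and its kappaB core (chr4:74964981-74964989) lay within the peak. In the gemcitabine list the nearest peak was 17.6 kb upstream, with a score of 51.9 near the minimum of 50. For the other 5 ELR chemokines no core lay in a peak of either list.

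The start of CCL2, which showed no difference in RNA, lay inside a peak of the gemcitabine list (chr17:32581429-32582508, score 105.43, above 78.8% of that list). This peak reached 875 bases before the start and 204 bases after it, and the nearest vehicle peak was 56.4 kb downstream. CCL20 had a vehicle peak (chr2:228682682-228683659, score 111.49) 4.12 kb downstream of its start, beyond the end of the gene, and its nearest gemcitabine peak was 407 kb away. CXCL16 had a peak 7.99 kb downstream of its start in the vehicle list and 8.04 kb downstream in the gemcitabine list. These overlapped (chr17:4634347-4635233 and chr17:4634570-4635184), with scores of 124.29 and 50.33, and lay past the end of CXCL16, over the start of MED11. CXCL8, with the largest rise, had its nearest peak 157 kb away in vehicle and 130 kb away in gemcitabine. CXCL1 had no peak closer than 27.7 kb in the vehicle list, and CXCL10 none closer than 125 kb in either. A peak present in 1 list only is not shown to differ between the conditions, since each list comes from a single library of unknown depth.

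**Figure D4:**
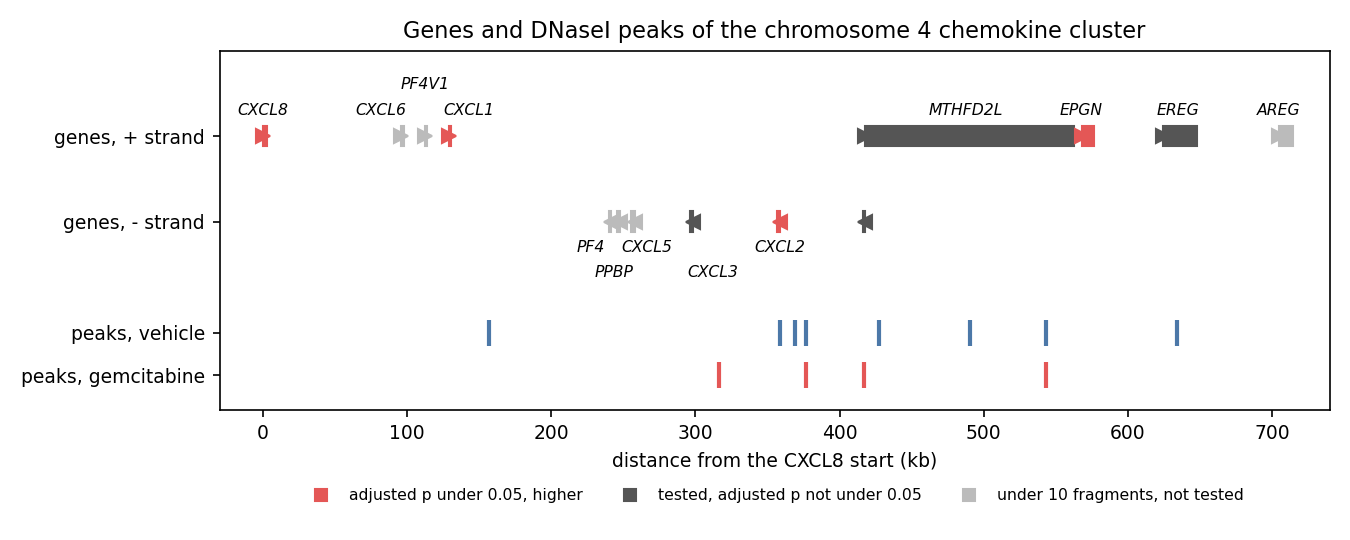
Genes and DNaseI peaks of the chromosome 4 chemokine cluster, with the distance from the CXCL8 start in kb on the horizontal axis, genes as boxes with an arrowhead at the start (red for an adjusted p under 0.05 and higher), and peaks of each list as ticks. The vehicle list has a peak over the CXCL2 start at 359 kb that the gemcitabine list lacks, and the stretch from CXCL8 to CXCL1 has no peak in either list.

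Within the stretch from CXCL8 to CXCL10, 20 other genes of the table started, of which 11 were tested and 1 was called, higher. Among all tested genes 5.69% were called higher and 4.42% lower. EPGN, an EGF-receptor ligand that lies 209 kb beyond CXCL2, had 20 and 22 fragments in vehicle and 102 and 82 after gemcitabine. The conditions were far apart, and the log2 fold change was 2.24 (SE 0.26, edgeR's quasi-likelihood test, adjusted p = 1.06e-05). Between CXCL2 and EPGN, MTHFD2L, an enzyme of folate metabolism, did not pass the test (log2 fold change -0.39, adjusted p = 0.0633 from edgeR). The platelet chemokine genes PF4, PF4V1 and PPBP, which lie among the ELR chemokines, had 0 fragments in every library. The most abundant of the 11, G3BP2, a stress granule protein, averaged 131 FPKM with a log2 fold change of -0.02. Over the 11, log2 fold changes had a median of 0.02, beside 0.01 for all tested genes.

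The other chemokine ligands that could be matched by symbol were mostly absent. CCL3, CCL4 and CCL5 were not among the matched genes, so nothing was read for them. Of the 29 matched ligand genes, 15 had no fragment in any library and 5 were tested. None was called in either direction by edgeR or by DESeq2, with 0 at an unadjusted p under 0.05. Among all tested genes edgeR called 5.69% higher and 4.42% lower. CCL7, a monocyte attractant encoded beside CCL2, was the most abundant at 12.4 and 10.3 FPKM in vehicle and 10.5 and 12.4 FPKM after gemcitabine. Its levels overlapped between the conditions like those of CCL2. The interferon-induced ligands CXCL9 and CXCL11, relatives of CXCL10, had 0 fragments throughout.

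Receptors for the chemokines that rose were not detected. CXCR2, through which CXCL1, CXCL2 and CXCL8 act, and CXCR1, a further receptor of CXCL8, had 0 fragments in all 4 libraries. So did the CXCL10 receptor CXCR3. The CCL2 receptor CCR2 had 1 fragment in 1 library, the CCL20 receptor CCR6 had 1 in each of 2, and the CXCL16 receptor CXCR6 had 3 to 9 per library. Of the 23 receptor genes 9 were tested, 2 were called higher and 0 lower, while DESeq2 called 0 in either direction. Over all tested genes edgeR called 5.69% higher and 4.42% lower. At an unadjusted p under 0.05 in edgeR, 4 receptors were higher and 2 lower, where 23.1% and 24.1% of all tested genes were. An adjusted p under 0.05 in edgeR was reached by 5 of the 9: CCR1, CCR3, CCR7 and CCR10 higher and CXCR4 lower. Over all 14854 tested genes it was reached by 2751 higher (18.5%) and 2975 lower genes. CCR7, a receptor for lymph node chemokines, had 0.534 and 0.820 FPKM in vehicle and 1.83 and 1.68 FPKM after gemcitabine (log2 fold change 0.72, adjusted p = 0.0235 from edgeR). CCR10, a receptor for CCL27 and CCL28, had 0.659 and 1.15 FPKM in vehicle and 2.23 and 2.07 FPKM after gemcitabine (log2 fold change 1.15, adjusted p = 0.0153 from edgeR). CCR1 and CCR3, which bind CC chemokines, passed the adjusted p and the fold but not the difference of 1 FPKM. CCR1 had 5 and 5 fragments in vehicle and 20 and 23 after gemcitabine (log2 fold change 2.19, adjusted p = 0.00223 from edgeR), and CCR3 had 89 and 100 in vehicle and 236 and 208 after gemcitabine (log2 fold change 1.35, adjusted p = 5.54e-06 from edgeR). CXCR4, the CXCL12 receptor, was the most abundant at a mean of 142 FPKM, and it passed the adjusted p but not the fold (log2 fold change -0.40, adjusted p = 0.00101 from edgeR).

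Among the enzymes and the proteoglycans that handle chemokines outside the cell, each list had 1 call, higher in both edgeR and DESeq2, and 0 lower. At an unadjusted p under 0.05 in edgeR, 3 genes of each list were higher and 1 was lower. Over all tested genes these shares were 23.1% higher and 24.1% lower, and those of the calls were 5.69% and 4.42%. ANPEP, an aminopeptidase that trims chemokine ends, had 12.0 and 13.5 FPKM in vehicle and 19.9 and 24.8 FPKM after gemcitabine (log2 fold change 0.73, adjusted p = 6.67e-06 from edgeR), as the only call of 4 tested. MMP2, a matrix metalloproteinase that cleaves some chemokines, was the most abundant of these enzymes at 131 FPKM, with a log2 fold change of 0.38. SDC4, a heparan sulfate proteoglycan of the kind that holds chemokines at the cell surface, had 27.5 and 24.8 FPKM in vehicle and 61.6 and 63.0 FPKM after gemcitabine (log2 fold change 1.09, adjusted p = 1.01e-07 from edgeR). It was the only call of 6, and GPC1, the most abundant at 179 FPKM, had a log2 fold change of 0.01.

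Genes upstream of the ELR chemokines included several calls. The lists of related genes were chosen with earlier results of these data known, so their counts are no independent test. The study itself had named IL8, IL1B and NFKB2 among the genes that changed. Of 13 tested cytokines, receptors and adaptors, 5 were called higher and 0 lower by edgeR, as by DESeq2. In edgeR 7 were higher and 1 was lower at an unadjusted p under 0.05. Over all tested genes edgeR called 5.69% higher and 4.42% lower. At the unadjusted p these shares were 23.1% and 24.1%. IL1B, a cytokine that induces CXCL8, had 19 and 15 fragments in vehicle and 56 and 59 after gemcitabine (log2 fold change 1.86, adjusted p = 0.000196 from edgeR). TLR3, a sensor of double-stranded RNA, TLR4, the endotoxin receptor, IL17RC, an IL-17 receptor subunit, and IRAK2, a kinase downstream of IL-1 and Toll-like receptors, were called higher with log2 fold changes of 0.69 to 0.92. TNF had 1 fragment in 1 library and IL17A 0. Of 13 tested NF-kB subunits and inhibitors, 6 were called higher and 0 lower by edgeR, as by DESeq2. In edgeR 6 were higher and 2 were lower at an unadjusted p under 0.05. RELB and NFKB2, the pair of the noncanonical NF-kB pathway, had log2 fold changes of 1.46 and 0.98, and the inhibitors NFKBIA, NFKBIE and TNFAIP3 and the cofactor NFKBIZ had 0.68, 1.17, 1.22 and 0.73. RELA and NFKB1, the subunits of the canonical pathway, were not called (log2 fold changes -0.07 and -0.20, adjusted p = 0.434 and 0.0419 from edgeR). Medians on the log2 scale were 0.13 for the NF-kB list and 0.48 for the upstream list, beside 0.01 for all tested genes.

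For CXCL10, whose own counts were at the limit of detection, 4 of 6 tested interferon-pathway genes were called higher by edgeR and 0 lower. DESeq2 also called 4 higher and 0 lower. In edgeR 5 were higher and 0 lower at an unadjusted p under 0.05. Over all tested genes edgeR called 5.69% higher, and 23.1% were higher at the unadjusted p. IRF1, a transcription factor that acts on interferon-induced genes, had 7.69 and 9.89 FPKM in vehicle and 30.9 and 25.5 FPKM after gemcitabine (log2 fold change 1.44, adjusted p = 1.34e-06 from edgeR). IRF7 had a log2 fold change of 1.38, and STAT2 and IRF9, which act together downstream of the type I interferon receptor, had 1.02 and 1.01. IFNB1, which encodes interferon beta and was the only interferon gene listed, had 0 fragments. The median of this list was 1.01, beside 0.01 for all tested genes.

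Several chemokine messages carry AU-rich elements and are short-lived. Of 8 tested factors that bind or degrade such messages, 0 were called higher and 1 was called lower. By the same rule 5.69% of all tested genes were called higher and 4.42% lower. HNRNPD, an AU-rich binding protein, had 374 and 355 FPKM in vehicle and 266 and 283 FPKM after gemcitabine (log2 fold change -0.63, adjusted p = 1.96e-05 from edgeR). In edgeR 1 of the 8 was higher and 5 were lower at an unadjusted p under 0.05, where 23.1% and 24.1% of all tested genes were. The call of HNRNPD was lost when libraries were scaled to their totals. ZFP36, which promotes decay of such messages, did not pass (log2 fold change 0.27, adjusted p = 0.0581 from edgeR). The median of the list was -0.28, beside 0.01 for all tested genes. CCR10, TLR4, IL17RC, NFKBIZ, IRF1 and IRF9 overlap other protein-coding gene models, so their counts may include reads of those genes.

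**Figure D5:**
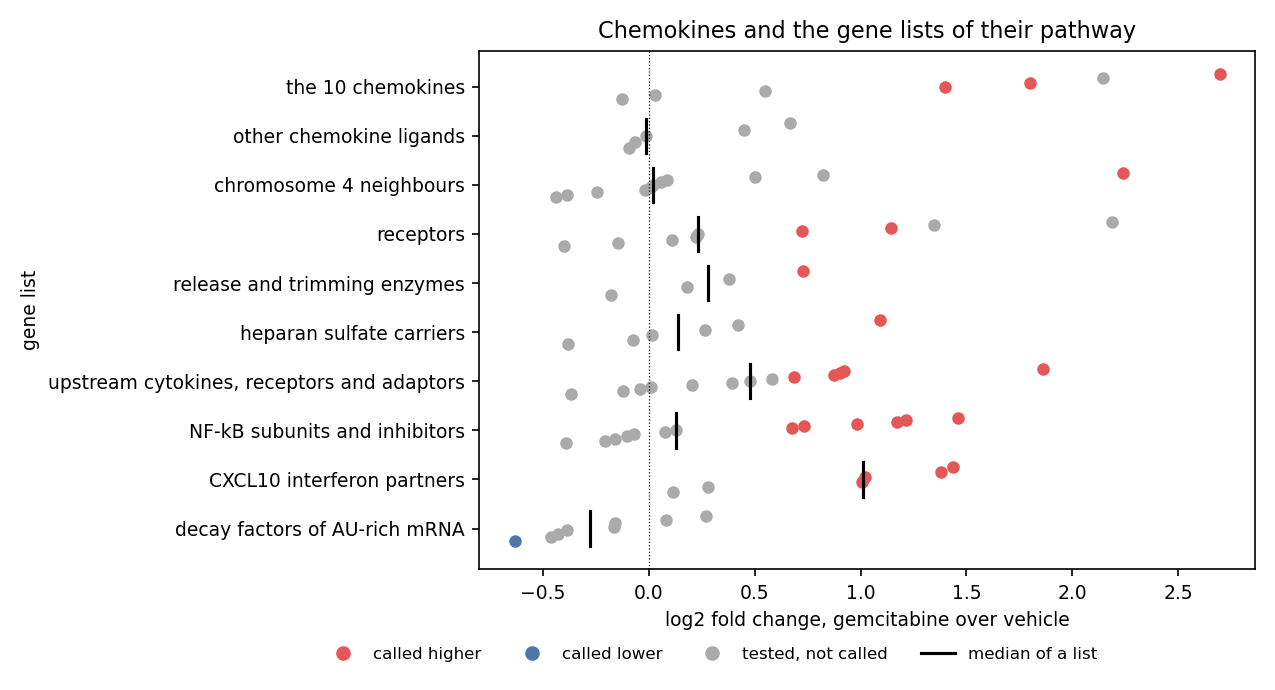
Log2 fold change, gemcitabine over vehicle, of each tested gene, with 1 row for the chemokines and 1 for each list of related genes, and a bar at the median of a list. Red points were called higher and blue lower, and the lists of NF-kB genes (6 of 13) and CXCL10 interferon partners (4 of 6) hold red points at 0.68 or above, while the other chemokine ligands hold none. Over all tested genes 5.69% were called higher.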

How the data were processed

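RNA-seq of PANC1 cells covered 2 vehicle and 2 gemcitabine libraries, and DNaseI-seq 1 library of each. The authors mapped single-end RNA-seq reads with TopHat2 2.0.8 (hg19) and ran Cuffdiff 2.0.2 on protein-coding Gencode genes, and the deposited table holds estimated counts (fragments assigned to a gene) and FPKM. An index in the table separates the libraries of a condition but names no replicate of the labels. From the DNaseI-seq reads the authors made a peak list per library with MACS at a p-value of 1e-05, and the deposited lists give a position and a score. Cuffdiff's scaled values in the same table were not used.

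Here estimated counts were rounded, and every gene whose 4 libraries summed to 10 fragments or more entered edgeR 4.0.16 (R 4.3.3, quasi-likelihood test, TMM scaling, Benjamini-Hochberg adjustment, no covariate), with the 4 calling criteria of the study's methods. Cuffdiff's own test was not run. The code was checked on simulated counts. Libraries of a condition differed by more than sampling noise, so each counted as 1 replicate. Gene starts are those of canonical transcripts in a later Gencode release carried over to hg19, which gave 19343 starts. Promoter windows came from RefSeq (GRCh38.p14), and sequences were aligned with Biopython 1.88.

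The 10 chemokines were named for the work, and of each related list the called genes and, with fewer than 2 calls, the most abundant gene were named. CCR1, CCR2, CCR3, CCR6, CXCR1, CXCR2, CXCR3, CXCR6, CXCL9, CXCL11, PF4, PF4V1, PPBP, MTHFD2L, TNF, IL17A, RELA, NFKB1, IFNB1 and ZFP36 were added after their values were seen. Chemokines and lists were chosen with earlier results of these data known. Alternatives were DESeq2 1.42.0, limma 3.58.1 on log2(FPKM + 1) and log2(FPKM + 0.1), other scalings, filters and thresholds, each library left out, and other distances and scores of peaks.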

Additional observations from a re-analysis of the deposited data

How the results depend on the processing

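CXCL1, CXCL2 and CXCL8 stayed the 3 called chemokines under RLE size factors, library totals, DESeq2, no filter, edgeR's own filter, an adjusted p alone or under 0.01, and limma on log2(FPKM + 1) for genes with a mean of at least 0.1 FPKM. With limma on all 17783 genes, log2(FPKM + 1) and log2(FPKM + 0.1) each called 0 chemokines and 0 genes at all, although 4689 and 4716 genes, 4 of them chemokines, had an unadjusted p under 0.05. The cause was not tested. With 1 library left out, 2 to 3 chemokines were called. The log2 fold change of CCL2 reversed to -0.04 without gemcitabine replicate 2 and -0.063 without vehicle replicate 2, and CXCL16 to 0.045 without gemcitabine replicate 1, all near 0 and not called. Their ranges over these fits were -0.063 to 0.14 and -0.31 to 0.045. CCL20 passed the count filter in only 1 of the 4 such fits, with a log2 fold change of 1.21. Library totals moved the median of all genes from 0.01 to 0.12 on the log2 scale and left 0 lower calls among the decay factors in place of 1. Over all genes they gave 1164 higher and 418 lower calls, against 845 and 656 with TMM.

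Chemokines with a vehicle peak numbered 2 within 5 kb, 1 within 1 kb and 3 within 20 kb, and 1 with peaks above the median score of their list. With a gemcitabine peak they numbered 1, 1, 4 and 1. Over all genes with a known start the vehicle shares were 22.1%, 19.0%, 32.9% and 13.4%. The gemcitabine shares were 25.6%, 22.0%, 37.0% and 14.7%. No paired analysis was possible because the index in the table ties no library to a replicate number of the labels. Depth was low for CXCL1, CXCL3 and CCL20, with at most 27 fragments per library, and CXCL5, CXCL6 and CXCL10, with at most 3, were below the count filter.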
